A study of Mus musculus with 14 samples.

Results

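The levels of 8 genes were followed through liver and kidney RNA of transgenic mice kept on a normal diet or on high salt. The genes are Chrna4, Gria3, Lpar2, Dll1, Fnip2, Capn8, Gm42427 and Gm5182. They were taken by symbol from the deposited gene counts, where they are 8 of 19660 genes in the liver table, and 7 of them are among the 20203 genes of the kidney table. They were grouped as liver genes of low abundance. They were chosen for the size of their difference between the diets in liver, or of the difference of that effect between the tissues. Their liver fold changes and their interaction values are therefore descriptions, with no test.

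All mice were adult males, 12 weeks old, and all carried the -6A haplotype of the human angiotensinogen gene, so the normal diet groups carry the transgene too and no mouse without it was compared. Angiotensinogen is the precursor of angiotensin, a peptide that raises blood pressure, and the study asked how high salt changes its control and the expression of other genes. Liver was sequenced in 4 libraries per diet and kidney in 3 per diet. The strain, the extent of the transgene, the salt content and the length of the diet are not given in the sources used here. No label says that the libraries came from separate animals, so the p-values measure only the spread between these libraries, which may be technical. Normal diet liver libraries are called 1 to 4, high salt liver libraries HS5 to HS8 after their columns, and kidney libraries 1 to 3 in each diet.

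The 8 genes belong to no single pathway. Chrna4 and Gria3 encode subunits of ligand-gated ion channels that are best known from neurons, one opened by acetylcholine and the other by glutamate. Lpar2 is a G protein-coupled receptor for the lipid lysophosphatidic acid, Dll1 is a membrane ligand that activates Notch receptors on a neighbouring cell, and Fnip2 binds folliculin, a regulator of nutrient signalling at the lysosome. Capn8 is a calcium-dependent protease known from mucous cells of the stomach, while Gm42427 and Gm5182 are loci without an established product. They were set beside Fasn, fatty acid synthase, which makes palmitate from malonyl-CoA and is a main target of the insulin and carbohydrate response of the liver.

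Liver libraries held 37267778 to 51487382 counts and kidney libraries 16046094 to 22004927. Transcripts of the mitochondrial genome took 2.30% and 2.06% of the counts in normal diet liver libraries 1 and 2, but 11.3% to 29.6% in the other 6 liver libraries and 23.5% to 41.2% in kidney. HS5 and HS6 were the most alike of all liver pairs, with a standard deviation of their log2 differences over genes of 0.25 against 0.51 to 1.03 for the other pairs. Normal diet libraries 1 and 2 stood at 0.92 to 1.03 from libraries 3 and 4, and at 0.89 to 0.97 from the high salt libraries. Library 3 was nearer to every high salt library (0.62 to 0.72) than to libraries 1 and 2, so the normal diet libraries were not uniform. The 7 hepatocyte markers were all counted in liver and summed to 55479 to 109968 CPM (each count over the scaled library total) there, against 844 to 1634 in kidney. The 7 kidney tubule markers summed to 25310 CPM or more in every kidney library and to at most 46.2 CPM in a liver library.

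Gm5182 is annotated as a processed pseudogene of 6092 bases (chr12:10152142-10158233, plus strand, GRCm38, GENCODE). Aligned with BLAST, it matched the coding sequence of Acaca, the acetyl-CoA carboxylase that makes malonyl-CoA for fatty acid synthesis, at 99.2% identity over 6118 aligned columns, with 20 mismatches and 29 gap columns. The longest run without a difference was 663 bases. A stretch of 80 bases of each, from GRCm38, shows how little separates them; capitals mark the positions at which they differ.
Gm5182, chr12:10155501-10155580, plus strand: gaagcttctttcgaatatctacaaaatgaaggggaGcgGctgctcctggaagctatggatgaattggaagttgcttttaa
Acaca, chr11:84312727-84312806, plus strand: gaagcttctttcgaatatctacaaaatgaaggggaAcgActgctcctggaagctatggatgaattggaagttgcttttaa
Of the 6043 stretches of 50 bases in Gm5182, 83.0% also occur in Acaca transcripts. For such stretches a read cannot be placed by its sequence alone, and the authors' expectation-maximisation step shares it out.

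Sharing was lower in the other genes. Chrna4 and Capn8 shared 0% of their stretches of 50 bases with another gene, Lpar2 0.0862%, Gria3 0.614% and Fnip2 0.75%. Dll1 shared 16.1%, all of them with A930024N18Rik, a non-coding gene that overlaps it on the opposite strand, so without strand their reads cannot be told apart. Gm42427 shared 48.8% with 24 other genes. The deposited values of Chrna4, Lpar2, Gria3, Dll1 and Capn8 were whole numbers (within 0.005) in 8 of 8 liver libraries, those of Fnip2 in 6, of Gm42427 in 3 and of Gm5182 in 0.

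RefSeq promoters (GRCm38.p6, 250 bases before to 50 after a start) were at hand for 6 of the 8 genes, with more than 1 for Dll1. They were searched on both strands for the E-box CACGTG, the sterol regulatory element TCACNCCAC, the LXR element (direct repeats with a spacer), CCAAT and TATAAA. Among the 8 genes, matches were found in Lpar2 and Dll1. Lpar2 held 2 E-boxes, 190 and 141 bases before the RefSeq start, in the stretch printed here with the matches in capitals; the match nearer the gene lies at the start that GENCODE gives, at base 69822429.
Lpar2, chr8:69822315-69822434, plus strand: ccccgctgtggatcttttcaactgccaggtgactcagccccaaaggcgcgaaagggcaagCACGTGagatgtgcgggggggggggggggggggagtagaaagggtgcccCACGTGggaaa
The E-box occurs in 7.15% of 32851 RefSeq promoters, the sterol regulatory element in 1.24% and the LXR element in 0.0213%. Dll1 held CCAAT at 2 positions of 1 promoter and the Fasn promoter held it at 3, against 37.4% of all promoters with a match. TATAAA, found in 13.6%, was in none of those searched for these genes or Fasn. A match is a description of letters and no evidence of binding.

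In liver, 7 of the 8 genes were higher on high salt and Capn8 was lower, and in each the 4 libraries of the diets did not overlap. Over all genes tested, 12.5% did not overlap and 1.00% passed edgeR's quasi-likelihood test at an adjusted p under 0.05 (90 higher and 62 lower); nothing is read from the count of 8, since the genes were chosen from this contrast. The median log2 fold change of all genes was -0.023. Whether a change reflects cells of another number or another amount of RNA per cell cannot be told apart in tissue RNA.

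The summed levels of 4 of the 12 marker lists did not overlap between the diets in liver. Hepatocyte markers summed to 55479 to 86313 CPM on the normal diet, against 91910 to 109968 CPM on high salt, and 6 hepatic stellate cell markers to 71.5 to 129 and 137 to 161.7 CPM. The 8 neuron and glia markers summed to 9.51 to 17.5 CPM on the normal diet, against 6.57 to 8.94 CPM on high salt, with Snap25, Tubb3, Elavl4 and Sox10 not counted in liver. Of 6 exocrine pancreas markers 1, Cela1, was counted, at 36.6 to 48.9 CPM on the normal diet, against 13.5 to 34.8 CPM on high salt; Cpa1, Prss2, Pnlip, Ctrb1 and Amy2a5 were not counted. The stomach and intestine markers, the group in which Capn8 is best known, overlapped, with sums of 2.37 to 27.3 and 7.10 to 13.8 CPM and with Gkn1 and Muc5ac not counted. So did the kidney tubule markers, at 0.547 to 5.94 CPM on the normal diet and 2.84 to 46.2 CPM on high salt. Neutrophil markers, at 1.19 to 54.3 and 1.62 to 2.37 CPM, overlapped as well. No gene of the 12 marker lists passed the test in liver, and their part in the levels of the 8 genes was not tested.

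Chrna4, the alpha4 subunit of the nicotinic acetylcholine receptor (chr2:181018380-181043546, minus strand), had 0.476, 0.681, 1.64 and 2.98 CPM in normal diet libraries 1 to 4. It had 9.30, 8.83, 10.9 and 23.1 CPM in HS5 to HS8. The diets stood apart by a wide gap, yet the normal diet libraries spread over 6.27-fold among themselves and HS8 lay far above the other 3 high salt libraries. Means were 1.44 ± 1.14 and 13.0 ± 6.76 CPM (SD, n = 4 each), and the log2 fold change was 3.17 (standard error, SE, 0.57). These rest on 20 to 124 counts per normal diet library and 426 to 1306 per high salt library. The coefficient of variation was 79.2% on the normal diet, where counting alone would give 13.5%, and 51.9% on high salt, where counting would give 3.81%. The 2 low libraries were those with few mitochondrial counts, and the fold of 9.0 became 5.60 without both; it was 14.1 without normal diet library 4. The gene 17 bases away on the opposite strand, Col20a1, had 0.963 CPM on the normal diet, against 0.487 CPM on high salt and did not pass (edgeR adjusted p = 0.425).

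Gria3, an AMPA-type glutamate receptor subunit (chrX:41400854-41678601, plus strand), was the gene of lowest level per length in high salt liver among the 8. It had 0.357, 0.245, 0.472 and 0.384 CPM in the normal diet libraries, from 9 to 16 counts each. On high salt it had 1.12, 1.02, 1.14 and 1.96 CPM, from 49 to 111 counts. HS8 was again the high library, while the other 3 high salt libraries lay between 1.02 and 1.14 CPM. The means were 0.365 ± 0.0934 and 1.31 ± 0.438 CPM (SD, n = 4 each), and the log2 fold change was 1.84 (SE 0.33). On the normal diet the spread of 25.6% was no larger than counting gives (27.2%), so library differences there were not detectable at this depth.

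Lpar2 (chr8:69822429-69831102, plus strand) had the tightest libraries of the genes under 5 CPM. It had 0.571, 0.708, 0.598 and 0.793 CPM on the normal diet, against 2.36, 2.53, 2.87 and 3.07 CPM on high salt. The lowest high salt library stood well above the highest normal diet library. With means of 0.667 ± 0.103 and 2.71 ± 0.322 CPM (SD, n = 4 each), the log2 fold change was 2.01 (SE 0.23). Counts were 19 to 33 and 122 to 174 per library, and the spread of 15.4% on the normal diet was below the 19.9% that counting gives. Pbx4, a homeobox gene that begins 1389 bases beyond its end on the same strand, had 0.0918 CPM on the normal diet, against 0.546 CPM on high salt. Its log2 fold change of 2.54 (SE 0.55) did not pass (edgeR adjusted p = 0.065), although its diets did not overlap. Gmip, 559 bases before Lpar2, changed by 0.84 on that scale and did not pass either (edgeR adjusted p = 0.194).

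Dll1 (chr17:15367354-15376872, minus strand) had 0.927, 0.599, 1.23 and 0.721 CPM on the normal diet. On high salt it had 3.60, 3.19, 3.91 and 2.93 CPM. The diets stood well apart, and here HS8 was the lowest of its group and HS7 the highest. The means of 0.869 ± 0.274 and 3.41 ± 0.433 CPM (SD, n = 4 each) gave a log2 fold change of 1.97 (SE 0.27), from 22 to 39 and 154 to 203 counts per library.

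Fnip2 (chr3:79455974-79567796, minus strand) was, per kilobase, the most abundant of the protein-coding genes that were higher, and its high salt libraries were the most even. Levels were 8.15, 15.3, 12.0 and 11.2 CPM on the normal diet, against 33.9, 33.5, 31.1 and 27.4 CPM on high salt. The coefficient of variation was 25.1% and 9.42%, each above the counting error of 4.81% and 2.47%. The log2 fold change was 1.43 (SE 0.19), the smallest of the 8 in size. Gm17359, which overlaps Fnip2 on the opposite strand, had 0 to 4 counts per library.

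Capn8 (chr1:182565007-182632352, plus strand) was the gene that was lower. It had 10.9, 10.7, 4.81 and 9.23 CPM on the normal diet, and library 3, the library with the most mitochondrial counts, was the low one. On high salt all 4 libraries lay close together, at 1.05, 1.24, 1.41 and 1.29 CPM, a spread of 12.2% that counting alone gives (12.4%). The means were 8.90 ± 2.83 and 1.25 ± 0.152 CPM (SD, n = 4 each), and the log2 fold change was -2.83 (SE 0.28). It stayed between -3.05 and -2.49 when any library, or normal diet libraries 1 and 2 together, were left out. Capn2, the calpain gene 47399 bases away on the opposite strand, had a log2 fold change of 0.19 and did not pass (edgeR adjusted p = 0.405).

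Gm42427 (chr5:44137980-44143271, plus strand) is a GENCODE locus of the class TEC, models that await experimental testing. It had 0.143, 0.0817, 0.346 and 0.0961 CPM on the normal diet, from 3 to 11 counts each, so that it passed the filter on low counts through the high salt libraries. On high salt it had 2.25, 1.41, 3.99 and 0.601 CPM. The high salt libraries differed 6.65-fold among themselves, from 34.2 to 192 counts, and HS8 lay nearer to normal diet library 3 than to any other high salt library. The coefficient of variation of 70.3% on high salt was far above the 9.77% that counting gives. The log2 fold change of 3.65 is the largest of the 8 and has the largest standard error, 0.66.

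Gm5182 had 8.42, 11.9, 14.7 and 13.2 CPM on the normal diet. On high salt it had 64.8, 63.2, 41.3 and 59.6 CPM, with HS7 the low library. The log2 fold change was 2.25 (SE 0.22). Acaca had 23.8, 28.4, 50.4 and 39.0 CPM on the normal diet, against 136, 133, 106 and 139 CPM on high salt, a log2 fold change of 1.86 (SE 0.24; edgeR adjusted p = 0.013). Here too HS7 was the low library. With the counts of both loci summed, which does not depend on how shared reads were split, the log2 fold change was 1.97.

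**Figure D1:**
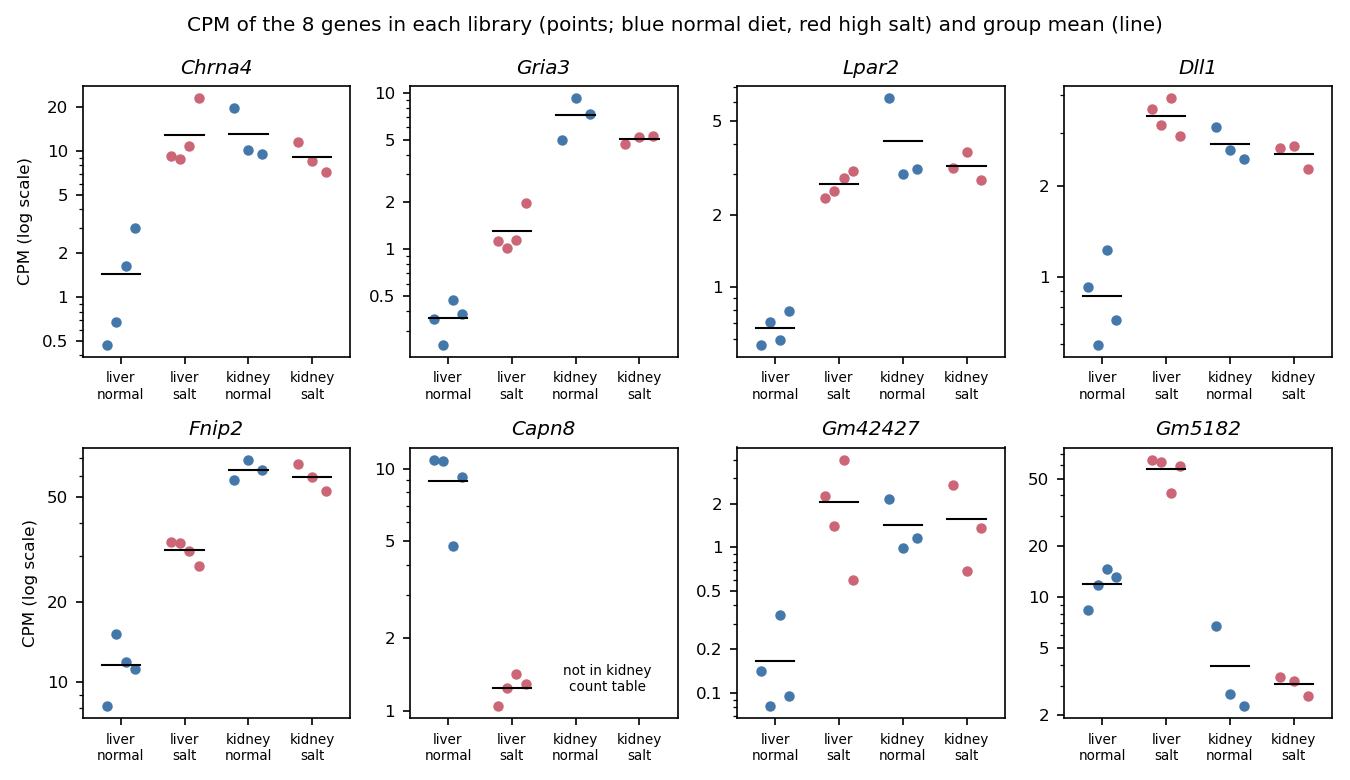
CPM on a log scale of each of the 8 genes in every library (points) with group means (lines), by tissue and diet. In liver the diets do not overlap for any of the 8 genes, and the spread inside a diet is widest for Chrna4 and Gm42427; in kidney the diets overlap for all 7 genes counted.

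Gm5182 counts were 29.2% to 56.6% of the Acaca counts over all 14 libraries. They were 29.2% to 41.8% of the Acaca counts in normal diet liver (35.0% ± 5.23, SD, n = 4) and 39.1% to 47.5% in high salt liver (44.2% ± 4.01, SD, n = 4). In kidney they were 48.9% ± 6.78 and 40.6% ± 10.3 (SD, n = 3 each). The ranges overlapped in both tissues. Across the 8 liver libraries, with each level taken as a deviation from its diet mean on the log2 scale, Gm5182 followed Acaca with Pearson's r = 0.87 (two-sided exact permutation within diets, p = 0.00868) and Spearman's rho = 0.81 (exact permutation p = 0.0451). It was 1 of 2 relations computed for this pair (adjusted p = 0.0125, exact permutation), both added after the values had been seen; in kidney the Acaca libraries fall into separate clusters of 2 and 4, so no pooled value is given there. Without the 2 libraries farthest from the median Acaca deviation, r was 0.81 (exact permutation p = 0.104), and without HS7 it was 0.90 (exact permutation p = 0.0764), so the test does not pass without HS7. Reads of the shared stretches are divided between both loci, so the test cannot separate a relation of their levels from that division.

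**Figure D2:**
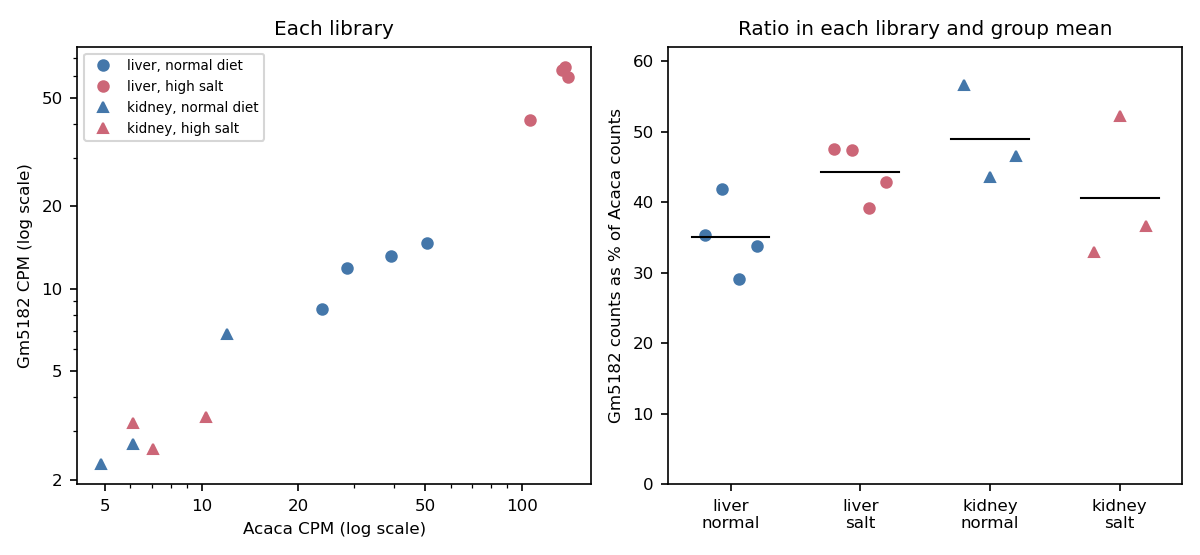
Left, Gm5182 against Acaca in CPM on log scales, with 1 point per library of liver (circles) and kidney (triangles) on the normal diet (blue) or high salt (red). Right, Gm5182 counts as a percentage of Acaca counts with group means as lines; all libraries lie between 29.2% and 56.6%.

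Set per kilobase of exon, the genes were mostly in the lower part of the liver transcriptome. Among 14831 genes ranked by CPM per kilobase on the normal diet, Gm42427 stood at percentile 1.09, Gria3 at 1.42, Lpar2 at 7.73, Dll1 at 13.4 and Chrna4 at 17.6. Fnip2, Gm5182 and Capn8 were at percentiles 44.6, 51.9 and 55.5, so these were not of low abundance by this measure on the normal diet. On high salt Chrna4 stood at percentile 57.4, Fnip2 at 65.5 and Gm5182 at 81.5. Gria3 stood at 7.64 and Capn8 at 18.3. The median gene had 1.80 and 1.82 CPM per kilobase on the diets.

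The families of the protein-coding genes were read from lists of related genes, with the 8 genes left out. Outside the lipogenic enzymes, 0 of 70 tested relatives passed edgeR's test in liver, where 1.00% of all genes did. Of the relatives 21 had an unadjusted edgeR p under 0.05, and DESeq2 called 5, namely Capn6, Enpp2, Gabarap, Mib1 and Rbpj. Over all 15130 genes tested, 3205 had such an unadjusted p and DESeq2 called 1122, so the DESeq2 share of the relatives was near the background. The share with such an unadjusted p was larger among the relatives than over all genes, a difference that was not tested. The median log2 fold change of the relatives was 0.23 against -0.023 over all genes. Of 21 lipogenic enzymes, 9 rose and 0 fell, with a median of 1.35, among them Fasn at 3.24, the desaturase gene Scd1 at 3.01 and Acly, which makes cytosolic acetyl-CoA, at 1.92 (edgeR adjusted p = 0.0115, 0.013 and 0.00482).

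Of 15 other nicotinic receptor subunits 3 were tested in liver. Chrnb2, the usual partner of Chrna4 in brain, had 1.73 CPM on the normal diet, against 3.18 CPM on high salt (log2 fold change 0.88, edgeR adjusted p = 0.161). Chrna2 and Chrnb1 had log2 fold changes of 0.61 and -0.048. None of the 13 other AMPA receptor subunits and auxiliary proteins passed the filter on low counts in liver. In the lysophosphatidic acid list, 9 of 13 were tested, with a median of 0.064. The receptors Lpar1 and Lpar6 had log2 fold changes of 0.49 and 0.14, and Enpp2, the enzyme that makes lysophosphatidic acid outside cells, had 92.3 CPM on the normal diet, against 58.6 CPM on high salt (log2 fold change -0.66, edgeR adjusted p = 0.0702).

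In the Notch list, 28 of 35 genes were tested and 20 had a positive sign, with a median log2 fold change of 0.41 and 0 past the test. The ligands Jag1 and Dll4 had values of 1.11 and 0.88 and the receptors Notch1 and Notch2 of 0.95 and 0.63 (edgeR adjusted p from 0.164 to 0.199). Among the tested Hes and Hey genes, Heyl, Hes1 and Hey1 had 0.93, 0.67 and 0.63, and Hes6 had -0.26 (edgeR adjusted p from 0.177 to 0.653). Of 15 other calpains and their regulators 10 were tested, with a median of 0.28. Capn6 had the largest value among them, 2.07 (edgeR adjusted p = 0.0754), opposite in sign to Capn8, while Capn1 was at 0.26. Of 24 partners of Fnip2 in folliculin, Rag GTPase and AMPK signalling 21 were tested, with a median of -0.072; Fnip1, its paralog, was at -0.14 and Flcn, folliculin itself, at 0.34.

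**Figure D3:**
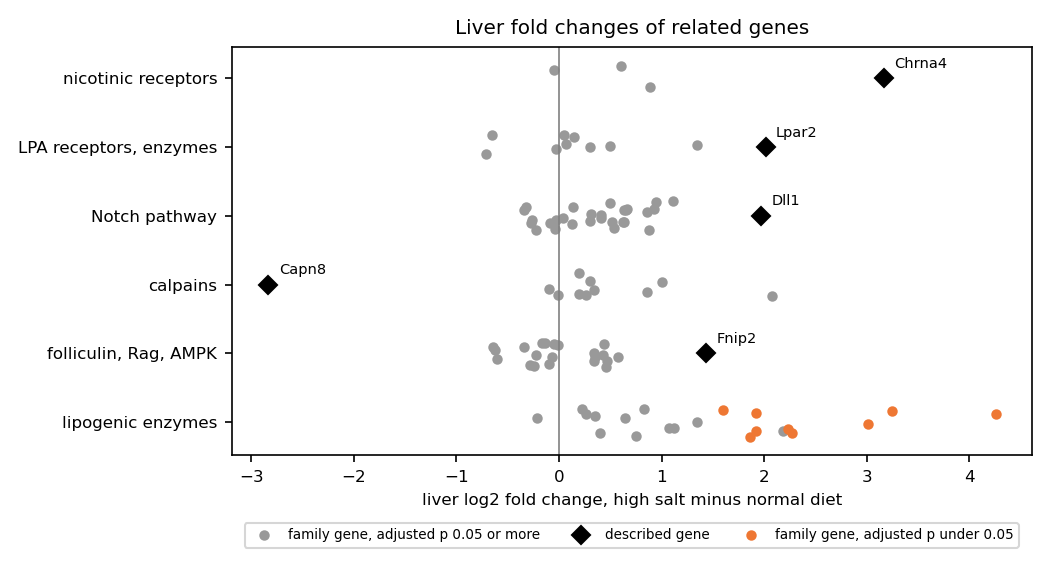
Liver log2 fold change (high salt minus normal diet) of each tested gene of 6 lists, with the described gene of the list as a black diamond. Grey points did not pass edgeR's test and orange points did; all 9 orange points are lipogenic enzymes, and the AMPA receptor list has no tested gene to show.

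In kidney none of the 7 genes counted passed the test between the diets, and the fold changes were small beside those in liver. The adjusted p was 0.9996 for each (edgeR), 0 of 7 had an unadjusted p under 0.05, DESeq2 called 0 of 7, and the diets overlapped in all 7, where 6.92% of all kidney genes did not overlap. The kidney background called was 0% of 15847 genes (318 at an unadjusted p under 0.05, and 11 by DESeq2). Without kidney normal diet library 1, 2627 genes had an unadjusted p under 0.05 and 0 passed. The median kidney log2 fold change of all genes was -0.025. Kidney values may have entered the choice of these genes through the interaction.

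Chrna4 had 19.9, 10.2 and 9.59 CPM in normal diet kidney and 11.5, 8.57 and 7.18 CPM in high salt kidney, a log2 fold change of -0.54 (SE 0.33). Gria3 had 5.0, 9.19 and 7.31 CPM and then 4.69, 5.23 and 5.27 CPM, with -0.50 (SE 0.26). Lpar2 had 6.24, 2.99 and 3.15 CPM and then 3.17, 3.72 and 2.82 CPM, with -0.36 (SE 0.34). In Chrna4 and Lpar2 the first normal diet library was the high one, and without it their values were -0.12 and 0.072.

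Dll1 had 2.47 to 3.15 CPM on the normal diet, against 2.27 to 2.71 CPM on high salt, a log2 fold change of -0.11 (SE 0.26). Fnip2 had 57.7 to 68.9 CPM and 52.7 to 66.3 CPM, with -0.088 (SE 0.19). Gm5182 had 6.79, 2.69 and 2.28 CPM and then 3.39, 3.21 and 2.59 CPM, with -0.36 (SE 0.43); again the first normal diet library was the high one, and the sign turned to 0.31 without it. Gm42427 had 2.15, 0.996 and 1.16 CPM and then 2.68, 0.693 and 1.36 CPM, with 0.15 (SE 0.54), and its sign depended on the library left out. Capn8 was analysed in kidney only in the authors' deposited normalized values, where it was listed at 0 in 4 of 6 libraries, at 2.82 in normal diet library 3 and at 2.41 in high salt library 2.

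The difference between the diet effects, liver minus kidney on the log2 scale, was 3.74 for Chrna4, 3.50 for Gm42427, 2.62 for Gm5182, 2.37 for Lpar2, 2.35 for Gria3, 2.09 for Dll1 and 1.53 for Fnip2. Fasn had 3.06. These are descriptions. Over all 16633 genes in this fit 0% passed (1681 at an unadjusted p under 0.05, and 148 by DESeq2).

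**Figure D4:**
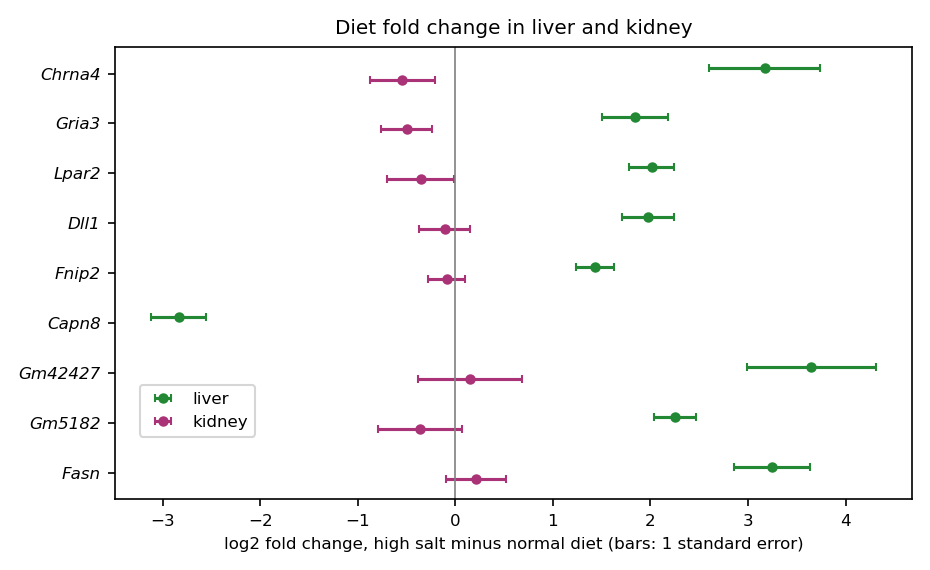
Log2 fold change of high salt minus normal diet (points) with 1 standard error (bars) for the 8 genes and Fasn, in liver (green) and kidney (purple). Liver points lie at 1.43 or above, except Capn8 at -2.83, and kidney points lie between -0.54 and 0.22.

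The level of each gene in kidney relative to liver, averaged over the diets, was not named in the rule of choice and was tested. The genes were grouped as low abundance in liver, however, and a low liver level leans this contrast toward kidney. Of 7 genes, 5 passed edgeR's test, 4 with the higher level in kidney, where 74.1% of all genes passed, so the count of members is close to the background. Of the 4 higher in kidney, Gria3 differed most, with a log2 difference (kidney minus liver) of 2.58 (SE 0.22; edgeR adjusted p = 3.1e-08). Fnip2 differed by 1.13 (2.6e-06, edgeR adjusted), Lpar2 by 0.90 (8.1e-04, edgeR adjusted) and Chrna4 by 0.81 (0.0441, edgeR adjusted). Gm5182 was the one higher in liver, at -3.46 (edgeR adjusted p = 6.2e-09), as was Acaca at -3.66. Dll1, at 0.083, and Gm42427, at 0.84, did not pass (edgeR adjusted p = 0.696 and 0.0975). The Chrna4 call was lost in 11 of 19 alternatives, with values of 0.59 to 0.86 in those. With scaling inside each tissue the median of all genes moved from -0.037 to 0.49, and Dll1 (0.61) and Gm42427 (1.36) then passed.

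The averages hide that the order of the tissue means differed between the diets for Chrna4, Dll1 and Gm42427, a difference that the choice of the genes favours. CPM values were scaled in each tissue apart, so levels across tissues are set side by side only roughly. On the normal diet the mean was higher in kidney than in liver for 6 of the 7 genes, for example 13.2 against 1.44 CPM for Chrna4, 2.75 against 0.869 for Dll1 and 1.44 against 0.167 for Gm42427. On high salt the liver means were 13.0 for Chrna4, 3.41 for Dll1 and 2.06 for Gm42427, and the kidney means 9.09, 2.55 and 1.58. The high salt libraries of the tissues overlapped for Chrna4 (8.83 to 23.1 CPM in liver, 7.18 to 11.5 in kidney). They also overlapped for Gm42427 (0.601 to 3.99 and 0.693 to 2.68), but not for Dll1. Lpar2 had 2.71 CPM in high salt liver and 3.24 CPM in high salt kidney. Gria3 and Fnip2 remained lower in every liver library than in every kidney library of either diet.

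Whether the genes follow Fasn was asked inside the diets, since the choice of the genes fixes the difference between them. Fasn had 63.7, 67.5, 94.9 and 140 CPM in normal diet libraries 1 to 4 and 917, 1013, 390 and 1153 CPM in HS5 to HS8. HS7 was thus far below the other high salt libraries, while HS8 was the highest. Each level was taken as a deviation from its diet mean on the log2 CPM scale, and Fasn deviations were permuted within the diets over all arrangements (two-sided exact permutation test).

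Of the 8 genes, 0 followed Fasn at an adjusted p under 0.05, and 1, Gm5182, had an unadjusted p under it. Gm5182 had Pearson's r = 0.79 (exact permutation p = 0.0417, 0.333 adjusted over the 8 genes) and Spearman's rho = 0.52 (exact permutation p = 0.238, adjusted 0.363). Without the 2 libraries farthest from the median Fasn deviation, HS7 and normal diet library 1, its r was 0.30, so the relation rests on those libraries. Gm5182 shares 83% of its stretches of 50 bases with Acaca, a lipogenic gene that was also low in HS7. Its relation to Fasn therefore cannot be told apart from Acaca reads assigned to it. Chrna4 had r = 0.63 (exact permutation p = 0.0903, adjusted 0.361), rho = 0.62 (exact permutation p = 0.139, adjusted 0.363) and r = 0.91 without those 2 libraries. Its normal diet libraries stood in the same order as those of Fasn, and HS8 was the highest library for both. HS7, however, was no lower in Chrna4 than HS5 or HS6. Normal diet libraries 1 and 2, the lowest for both genes, were also those with few mitochondrial counts (2.30% and 2.06%). The shared order cannot be told apart from that difference between the libraries, and the permutation treats the libraries of a diet as alike.

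The other 6 genes had smaller or negative values. Pearson's r was 0.43 for Gria3, 0.21 for Lpar2, 0.018 for Fnip2, -0.25 for Dll1, -0.33 for Capn8 and -0.55 for Gm42427, with exact permutation p from 0.215 to 0.958 and adjusted p from 0.574 to 0.958. Spearman's rho was 0.33, 0.52, -0.071, -0.52, -0.45 and -0.60 in the same order, with exact permutation p from 0.165 to 0.887 and adjusted p from 0.363 to 0.887. Without the 2 farthest libraries r was 0.58, 0.50, -0.88, 0.11, -0.059 and -0.18. The spread was no larger than counting gives for Lpar2 and Gria3 on the normal diet and for Capn8 on high salt. Gm42427 had 3 to 11 counts per normal diet library. Low values in these genes therefore cannot show that they do not follow Fasn. HS7, the high salt library with the least Fasn, was the highest high salt library for Gm42427, Dll1 and Capn8. For Dll1 (3.91 against 3.60 CPM in HS5) and Capn8 (1.41 against 1.29 CPM in HS8) the 95% intervals of counting error overlapped. The median r was 0.11 over the 8 genes, 0.049 over all 15129 other genes tested and 0.49 over 20 other lipogenic genes.

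**Figure D5:**
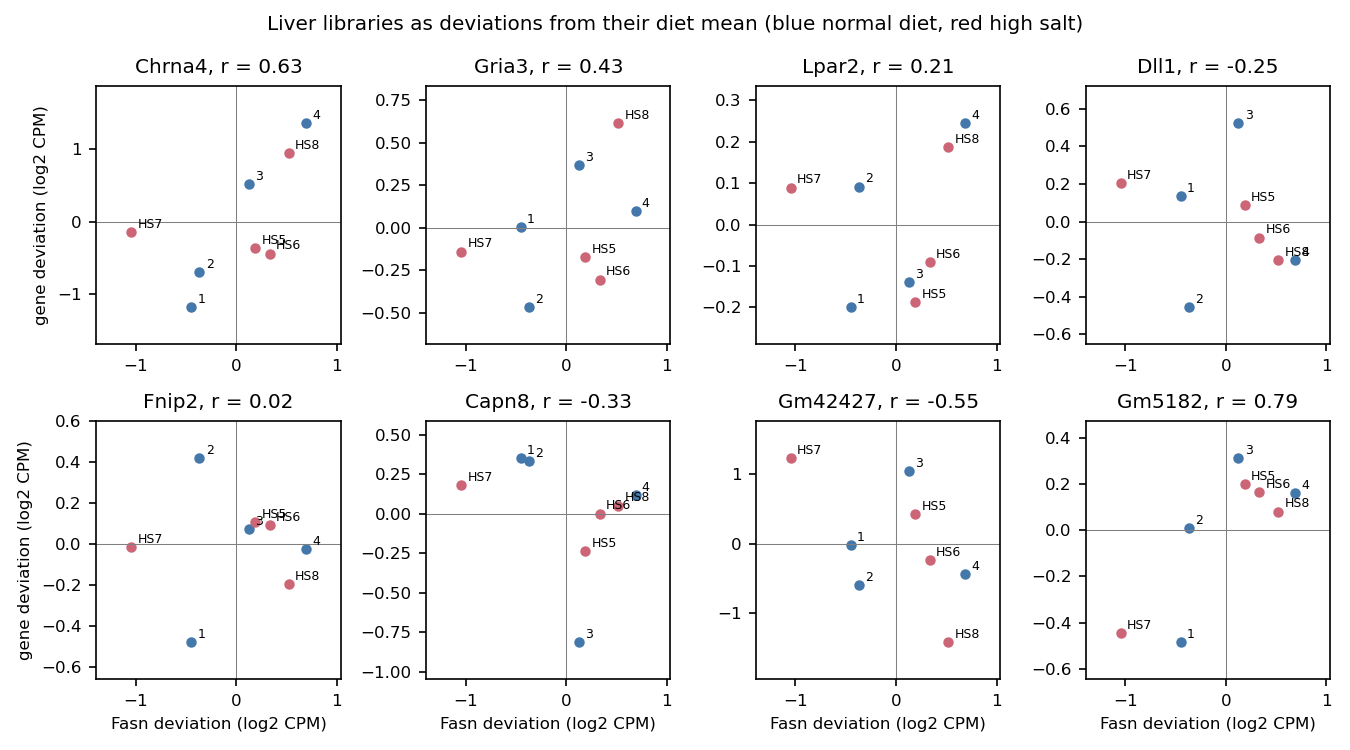
Deviation of each liver library from its diet mean in log2 CPM, for Fasn (horizontal) and each of the 8 genes (vertical), with normal diet libraries in blue, high salt libraries in red and Pearson's r in each title. HS7 lies far to the left in Fasn, and only in Gm5182, which shares most of its sequence with Acaca, is it also far below the diet mean.

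In kidney, Fasn had 14.4 CPM in normal diet library 1 and 18.7 CPM in high salt library 1, and 9.14 to 10.4 CPM in the other 4. The libraries fall into separate clusters of 2 and 4, so no pooled correlation is given and the relation cannot be tested there. Of the 7 genes, Chrna4 (19.9 and 11.5 CPM against 7.18 to 10.2), Gm42427 (2.15 and 2.68 against 0.693 to 1.36) and Gm5182 (6.79 and 3.39 against 2.28 to 3.21) were also highest in those same 2 libraries. Gria3 was lowest in them, at 5.0 and 4.69 CPM against 5.23 to 9.19 CPM in the other 4. Lpar2, Dll1 and Fnip2 did not separate the 2 libraries from the 4. Acaca was highest in them too, at 12.0 and 10.3 CPM against 4.84 to 7.05 CPM.

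Nor did the 8 genes move as 1 group inside the diets. Over the 28 pairs the median r of the deviations was -0.054, with a range from -0.68 to 0.81 (8 libraries, given with no test). The highest pair was Dll1 with Gm42427 and the lowest Dll1 with Capn8. Over the 8 libraries without removal of the diet means, the genes with the most similar log2 CPM pattern, given for 7 of the 8, were Taok3 for Chrna4 (r = 0.995), Eef2k for Lpar2 (0.982), Epm2aip1 for Dll1 (0.98) and Pbrm1 for Fnip2 (0.987). They were Aig1 for Capn8 (0.995), Tmtc3 for Gm42427 (0.981) and Ccdc69 for Gm5182 (0.989), for which Acaca came next (0.988). These patterns carry the diet difference itself and are a description over 8 libraries. Of these genes, Ccdc69 had the largest log2 fold change apart from Acaca, 1.78.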

How the data were processed

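Total RNA of liver and kidney was made into SMARTer mRNA libraries, per the labels' protocols. The authors deposited expected counts per gene estimated in Partek by expectation-maximisation, as the deposited file names state, and normalized values, a signal on a linear scale whose method is not stated. Partek 7.0, STAR 2.5.3a, DESeq2 and the build mm10 are named in the submitters' processing notes, without their roles. The names of the high salt liver columns give a diet and a number that matches no title, so these columns served as unnumbered replicates.

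The quasi-likelihood test of edgeR 4.0.16 (R 4.3.3), with TMM scaling and the filterByExpr filter, was run on rounded expected counts, in each tissue apart for the diet and in 1 fit of the 17600 shared genes for tissue and interaction. Benjamini-Hochberg adjusted p-values under 0.05 over all genes tested were called. CPM was taken over TMM-scaled library sizes, with a prior count of 2 on the log2 scale. Alternatives included DESeq2 1.42.0 and limma 3.58.1 on log2 of the deposited normalized values with a pseudocount of 1. Coordinates are those of GENCODE M21 (GRCm38), whose starts equal the deposited ones for the 8 genes. Sequences were aligned with BLAST 2.17.0. Without molecular identifiers reads are not separate molecules, so the counting errors given cover counting only.

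The 8 genes, the lists and the tests were chosen with earlier results of these data known. Beside the 8 genes and Fasn, the rule named list members past the threshold, the other Chrna, Chrnb, Gria, Lpar, Dll, Jag, Capn, Fnip and Flcn genes, the most similar patterns and overlapping or nearest genes within 50 kb. Enpp2, Notch1, Notch2, Heyl, Hes1, Hey1, Hes6, Gabarap, Mib1 and Rbpj fall outside it and were chosen after their values were seen. In simulated data 200 genes, drawn only from those above a set floor of mean count, were given a log2 change of 2. Of these, liver gave back 179 (15130 genes, 6 false calls), kidney 173 (15847 genes, 19 false calls) and the tissue comparison 196 (16633 genes, 14 false calls). Genes below that floor are not covered. The human transgene was not analysed here. The gene of most similar pattern to Gria3 is not reported here.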

Additional observations from a re-analysis of the deposited data

Results flagged for a closer look

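Among 20 groups of 4 liver libraries (the 8 genes, Fasn and Acaca in each diet), 3 held a library whose gap to its nearest neighbour was large against the range of the group; chance gives about 1 in 20. Chrna4 had 23.1 CPM in HS8, where the next library had 10.9, and its fold was 6.68 without HS8. Gria3 had 1.96 CPM in HS8, where the next had 1.14, and its fold was 2.99 without HS8. Acaca had 106 CPM in HS7, where the next had 133. The cause was not tested.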

How the results depend on the processing

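The liver diet difference of the 8 genes kept its direction in all 127 alternative values. The diets did not overlap for 8 of 8 genes under 10 alternatives. Both counts are descriptions, since the genes were chosen from this contrast and most of those 10 alternatives leave out a library. Leaving out a library can hardly make separated diets overlap. The number of liver genes called, 152, was 1122 with DESeq2, 12 with HS5 and HS6 summed, 52 without normal diet libraries 1 and 2, and 12 to 765 when 1 library was left out. The 9 family list genes became 18 with DESeq2, 4 with HS5 and HS6 summed, and 4 to 19 when 1 library was left out. In kidney 11 genes were called with DESeq2, and for the interaction 148 with DESeq2 and 0 to 7 with 1 library left out. The cause was not tested, beside the smaller number of libraries where some are summed or left out.

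Members with a tissue difference ranged from 4 to 7 of 7 over 19 alternatives, and 0 of 8 followed Fasn in 13 alternatives. With libraries left out, or HS5 and HS6 summed, too few arrangements remained for a single gene to pass on its own after adjustment. The 0 calls in those alternatives therefore say little. The relation of Fnip2 to Fasn reversed to -0.071 with Spearman, -0.0036 with the deposited normalized values, -0.019 with HS5 and HS6 summed and -0.88 without the 2 farthest libraries, where that of Dll1 became 0.11. With 1 library left out it ranged from -0.48 to 0.31 for Fnip2 and from -0.20 to 0.63 for Lpar2. The kidney log2 fold change of Gm42427 was -0.28 by limma on the deposited normalized values. With 1 kidney library left out it ranged from -0.46 to 0.57 for Gm42427, -0.18 to 0.00064 for Dll1, -0.54 to 0.072 for Lpar2 and -0.63 to 0.31 for Gm5182. No pooled Fasn relation is given in kidney, and its alternatives with another prior count and with the deposited normalized values were not run.

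Whether kidney replicate numbers pair the samples is not settled by these values. Deviations of same-numbered libraries correlated at 0.41, 0.37 and -0.09, and those of differently numbered libraries at -0.47 to 0.39. With the replicate block 0 kidney genes were called, as without it. On the normal diet counting alone gives a spread of 19.9% for Lpar2 and 27.2% for Gria3, above the 15.4% and 25.6% measured.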
